A study of Mus musculus with 8 samples.

Results

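The MAGE (melanoma antigen) family genes analyzed here were Maged1, Maged2, Mageh1, Magee1, Ndn and Nsmce3, 6 of the 53700 genes in the count table, each found by its symbol. They were picked because earlier results had shown members near silent in WT cells and expressed in FIH-KO cells, so the contrast between the genotypes had already been used to choose them, and for the members it is given below as a description without a test. The cells were Lewis lung carcinoma (LLC) cells, a mouse lung tumor line. The FIH-KO cells had been made with Cas9 and a guide against Hif1an, the gene for factor inhibiting HIF (FIH), an oxygen-dependent asparagine hydroxylase that dampens the activity of the hypoxia-inducible factors, and had been taken through limiting dilution. How many clones were sequenced, and whether the WT cells carried a control guide, is not given in the sources used here, so a difference between clones and an effect of the deletion cannot be told apart. Both genotypes were kept for 16 hours in normoxia (21% O2) or in hypoxia (1% O2), with 2 RNA-Seq libraries in each of the 4 groups and 8 in all. Nothing says that the 2 libraries of a group came from separate cultures, so p-values measure the spread between these libraries, which may be technical.

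MAGE proteins share a conserved fold, the MAGE homology domain, through which many of them bind RING ubiquitin ligases and steer them toward their substrates. Type I genes (the Magea, Mageb and Magec groups on the X chromosome) are silent in most adult tissues outside the germline and are known as tumor antigens because cancers can switch them on, whereas type II genes are expressed in many somatic tissues. All 6 members belong to type II. Maged1 (also called NRAGE) is an adaptor of the neurotrophin receptor p75 and of netrin receptors, Maged2 is known from a kidney salt-wasting disorder, Mageh1 encodes a short MAGE protein, Magee1 binds dystrobrevins, Ndn encodes necdin, an imprinted growth suppressor of the Prader-Willi region, and Nsmce3 is a subunit of the SMC5/6 genome maintenance complex.

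On the GRCm39 build, 4 members lay on the X chromosome. Maged1 (ENSMUSG00000025151.17) was at chrX:93579076-93585869 on the minus strand, Maged2 (ENSMUSG00000025268.16) at chrX:149589366-149597341 on the minus strand, Mageh1 (ENSMUSG00000047238.5) at chrX:151819162-151822096 on the minus strand, and Magee1 (ENSMUSG00000031227.9) at chrX:104163984-104167533 on the plus strand. Ndn (ENSMUSG00000033585.6) was at chr7:61995473-62000010 on the plus strand and Nsmce3 (ENSMUSG00000070520.5) at chr7:64516800-64522745 on the minus strand. The annotated structures differed: the canonical transcripts of Maged1 and Maged2 had 13 and 12 exons, whereas those of Mageh1, Magee1, Ndn and Nsmce3 had 1 exon each. The coding sequences ran from 654 bases in Mageh1 to 2754 bases in Magee1.

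The bases upstream of the RefSeq transcription starts are shown for the 3 X-linked members with low WT levels and, beside them, for Nsmce3, whose level differed least between the genotypes. They were read 5′ to 3′ on the strand of each gene from the RefSeq promoter table, made on GRCm38.p6, as windows of 250 bases, and each was placed on GRCm39 by its only exact match. Letters that GENCODE annotates as untranslated region of the same gene were left out, which shortened the window of Mageh1 to 238 bases and that of Maged2 (start 3 of the 4 that RefSeq gives) to 98 bases. The window of Ndn lay wholly within such annotation and that of Maged1 for 238 of its bases, and neither is shown. The stretches shown for Mageh1 and Maged2 lay within the GENCODE span of their own gene given above, downstream of its annotated 5′ end. Capitals mark the core of the HIF binding motif, ACGTG or GCGTG, or its reverse complement, CACGT or CACGC. The stretch of Mageh1 was chrX:151820572-151820809 (minus strand), that of Maged2 chrX:149596151-149596248 (minus strand), that of Magee1 chrX:104163734-104163983 (plus strand), and that of Nsmce3 chr7:64522789-64523038 (minus strand).
Mageh1: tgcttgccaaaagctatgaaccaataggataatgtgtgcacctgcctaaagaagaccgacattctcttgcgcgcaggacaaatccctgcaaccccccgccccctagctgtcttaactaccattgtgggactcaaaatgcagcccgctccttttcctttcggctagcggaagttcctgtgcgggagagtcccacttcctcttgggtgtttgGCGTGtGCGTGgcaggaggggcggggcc
Maged2: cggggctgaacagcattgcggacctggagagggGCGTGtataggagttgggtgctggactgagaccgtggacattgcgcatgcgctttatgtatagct
Magee1: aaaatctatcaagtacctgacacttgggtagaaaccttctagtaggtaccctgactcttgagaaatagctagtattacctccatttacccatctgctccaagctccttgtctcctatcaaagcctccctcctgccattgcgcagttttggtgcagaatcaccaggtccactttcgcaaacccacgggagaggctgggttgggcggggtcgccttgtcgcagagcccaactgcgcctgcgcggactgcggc
Nsmce3: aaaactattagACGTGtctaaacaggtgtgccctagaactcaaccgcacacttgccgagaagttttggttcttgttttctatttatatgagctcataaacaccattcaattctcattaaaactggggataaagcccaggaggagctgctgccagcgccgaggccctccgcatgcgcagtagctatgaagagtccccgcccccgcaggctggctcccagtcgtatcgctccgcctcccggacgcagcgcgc

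Over the whole windows, the core was present 2 times in that of Mageh1, 2 times at each of the overlapping starts 3 and 4 of Maged2, and 1 time each in the windows of Ndn, where it lay on the opposite strand, and of Nsmce3. It was not found in the windows of Maged1, Magee1 or the other 2 starts of Maged2. Thus, 5 of the 9 windows of the members held it, beside 38.6% of the 32851 windows of that length in the RefSeq table. CpG dinucleotides numbered 5 in the window of Ndn, 10 in that of Magee1, 11 in that of Mageh1, 14 in that of Maged1, 7 at each of Maged2 starts 1 and 2, and 16 in those of Nsmce3 and of Maged2 starts 3 and 4, beside a median of 6 over all windows, of which 25.4% held 16 or more. A further string, CATGCGC on either strand, is part of the palindromic motif of the nuclear respiratory factor NRF1. It was chosen after the sequences had been read. Matches on the 2 strands were counted apart, so that 1 palindromic site can give 2 matches. There were 3 matches in the window of Maged1, 5 at each of Maged2 starts 3 and 4, and 1 each in those of Ndn and Nsmce3. The windows of Mageh1, Magee1 and Maged2 starts 1 and 2 held none. Of all windows, 3.24% held the string. These matches describe letters in a window and not binding.

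The libraries held between 14519731 and 18177016 counts, and levels are given as CPM (counts scaled to the size of each library after TMM adjustment). Of the 53700 genes, 13933 passed the filter on low counts, including all 6 members. The transcript of the targeted gene, Hif1an, was at 84.5 and 82.2 CPM in WT normoxia and 90.1 and 83.9 CPM in WT hypoxia, against 34.7 and 37.6 CPM in FIH-KO normoxia and 45.5 and 51.0 CPM in FIH-KO hypoxia. Of the markers set for the line, Krt8, Krt18, Vim and Cd44 were present in every library, whereas of the 5 lung epithelium markers Nkx2-1, Sftpc and Epcam were at 0 counts, Cdh1 did not exceed 1 count and Napsa had 0 counts in WT normoxia, 1 and 1 in WT hypoxia, 3 and 11 in FIH-KO normoxia and 4 and 2 in FIH-KO hypoxia. Of the markers of leukocytes and endothelium, 2 of 7 (Cd3e and Adgre1) were at 0 in all libraries. The summed level of the 7 ran from 0.296 to 0.385 CPM in WT normoxia and 1.98 to 2.52 CPM in WT hypoxia. In FIH-KO cells it ran from 0.178 to 0.224 CPM in normoxia and 0.390 to 0.499 CPM in hypoxia. The endothelial marker Cdh5 reached 35 counts, with means of 0.0938 CPM in WT normoxia and 1.59 CPM in WT hypoxia. Its means in FIH-KO normoxia and hypoxia were 0.0280 and 0.254 CPM. None of the other markers of these cells exceeded 8 counts.

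Maged2, Mageh1 and Magee1, all on the X chromosome, were near silent in WT cells and expressed in FIH-KO cells, so that 3 members rather than a pair had this pattern. Ndn had the opposite pattern, and Maged1 was expressed in every library at a moderately higher level in FIH-KO cells. Nsmce3 was at nearly the same level in all groups. Over the 4 libraries of each genotype, the CPM of 5 of the 6 members did not overlap between the genotypes, as was the case for 25.9% of all tested genes. Because the members were chosen on this contrast, nothing is read from that count. In bulk libraries such as these, expression in more of the cells and more RNA per cell cannot be told apart.

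Maged2 had 26 and 8 counts in the WT normoxia libraries and 24 and 12 in the WT hypoxia libraries, which corresponded to 1.67, 0.473, 1.34 and 0.818 CPM. In FIH-KO cells it had 690 and 655 counts in normoxia and 476 and 432 in hypoxia, that is, 41.0, 36.6, 29.7 and 28.1 CPM. Every FIH-KO library was thus far above every WT library, and the lowest FIH-KO levels were those in hypoxia. The log2 fold change of FIH-KO over WT was 5.20 ± 0.33 (SE, n = 2 per group) in normoxia and 4.70 ± 0.33 in hypoxia. The normoxia value rested on few WT counts, as it was 6.31 without WT normoxia replicate 1 and 4.51 without WT normoxia replicate 2.

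Mageh1 had 3 and 1 counts in WT normoxia and 0 in both WT hypoxia libraries, against 82 and 87 counts in FIH-KO normoxia and 42 and 53 in FIH-KO hypoxia. Expressed as CPM, the FIH-KO libraries were at 4.88 and 4.87 in normoxia and at 2.62 and 3.45 in hypoxia. From the summed counts, the level in normoxia was 39.5-fold higher in FIH-KO cells, with an exact 95% counting interval from 15.2 to 147. In hypoxia, with 0 WT counts, the lower end of the same kind of interval was 26.2-fold. Such intervals cover counting error only. Its antisense neighbor 9530051G07Rik, which overlaps it, did not exceed 4 counts in any library.

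Magee1 had 19 and 21 counts in WT normoxia and 9 and 8 in WT hypoxia, at 1.22, 1.24, 0.504 and 0.545 CPM. FIH-KO cells had 296 and 296 counts in normoxia and 128 and 211 in hypoxia, at 17.6, 16.6, 7.99 and 13.7 CPM. The lower of the FIH-KO hypoxia libraries, replicate 1, was still above all WT libraries. The log2 fold change of FIH-KO over WT was 3.79 ± 0.30 in normoxia and 4.35 ± 0.35 in hypoxia (SE, n = 2 per group). The 5′ end of Magee1 overlaps the antisense transcript 5530601H04Rik, which had 196 to 324 counts in every library and means of 13.1 CPM in WT and 16.5 CPM in FIH-KO cells. The library kit kept strand, but the strand setting of the counting is not given in the sources used here.

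Ndn had 62 and 51 counts in WT normoxia and 60 and 28 in WT hypoxia (3.98, 3.02, 3.36 and 1.91 CPM), whereas FIH-KO cells had 2 and 0 counts in normoxia and 1 and 0 in hypoxia. All WT libraries held the transcript and both FIH-KO groups were at or near 0. From the summed counts, the WT level was 60.4-fold that of FIH-KO cells in normoxia (95% counting interval 16.3 to 505) and 85.0-fold in hypoxia (14.9 to 3393).

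Maged1 was at 187 and 213 CPM in WT normoxia, 191 and 183 CPM in WT hypoxia, 288 and 269 CPM in FIH-KO normoxia and 305 and 284 CPM in FIH-KO hypoxia. The lowest FIH-KO library lay above the highest WT library, with log2 fold changes of 0.48 ± 0.11 in normoxia and 0.66 ± 0.11 in hypoxia (SE, n = 2 per group). Nsmce3 was at 16.4 and 15.4 CPM in WT normoxia, 18.0 and 15.8 CPM in WT hypoxia, 19.3 and 19.7 CPM in FIH-KO normoxia and 16.8 and 17.5 CPM in FIH-KO hypoxia. Its genotypes overlapped in hypoxia, where the log2 fold change was 0.02 ± 0.15, and in normoxia the fold change was 0.30 ± 0.15. The hypoxia value took the other sign without WT hypoxia replicate 2 (-0.06) and without FIH-KO hypoxia replicate 2 (-0.002).

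**Figure D1:**
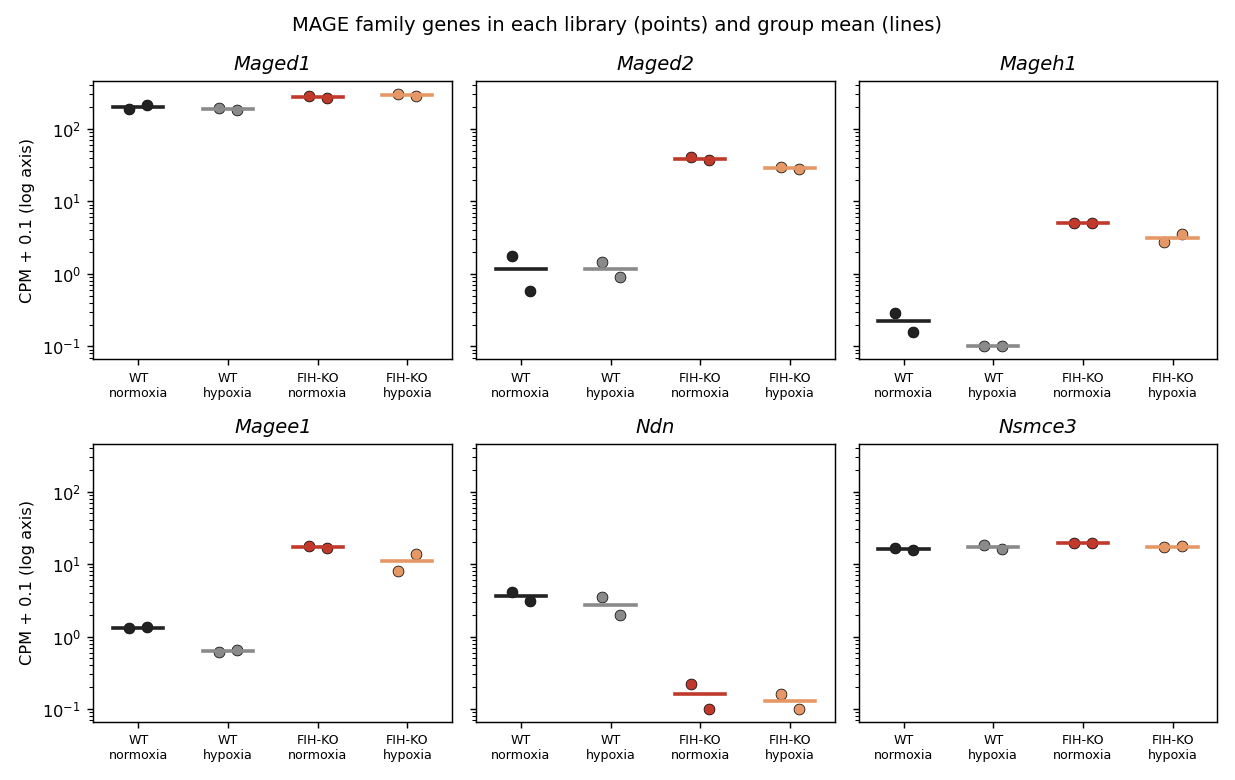
Level of each MAGE family gene in the 8 libraries, in CPM with 0.1 added so that 0 can be drawn on the log axis. Points are libraries and lines are group means (n = 2 per group); Maged2, Mageh1 and Magee1 sit far higher in both FIH-KO groups, Ndn sits at or near 0 there, Maged1 is between 183 and 305 throughout, and Nsmce3 is between 15.4 and 19.7.

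Per kilobase of exon (RPKM), Maged1 was the most abundant member in all 4 groups, at 39.5 ± 3.6 and 36.9 ± 1.2 in WT normoxia and hypoxia and at 54.9 ± 2.7 and 58.2 ± 2.9 in FIH-KO normoxia and hypoxia (SD, n = 2). The order below it differed between the genotypes. In WT cells Nsmce3 was next, at 2.67 ± 0.12 RPKM in normoxia, followed by Ndn at 0.927 ± 0.180 RPKM, and then Magee1 at 0.347 ± 0.005 and Maged2 at 0.330 ± 0.261 RPKM, which did not differ beyond their spread. In FIH-KO normoxia the order was Maged2 (12 ± 1), Magee1 (4.81 ± 0.21), Nsmce3 (3.28 ± 0.04) and Mageh1 (2.28 ± 0.004). In FIH-KO hypoxia, Maged2 was at 8.91 ± 0.35 RPKM, and Magee1 (3.06 ± 1.14) and Nsmce3 (2.89 ± 0.08) did not differ beyond their spread. Summed over the members, the level ran from 202 to 233 CPM in WT and from 346 to 371 CPM in FIH-KO cells. Maged1 made up 88.9% to 91.3% of that sum in WT and 77.6% to 84.2% in FIH-KO cells, and Maged2 made up at most 0.793% in the former and at least 8.09% in the latter.

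The other MAGE genes were close to silent, except Magef1. Of 36 further family genes in the table, Tro included, 31 were at 0 counts in all 8 libraries (among them the type I genes Magea1 to Magea6, Mageb1 and Magec2, and the type II genes Magee2 and Tro). Magea9 and Magel2 reached 1 count, and Mageb3 and Mageb7-ps reached 4 counts. A count of 0 in a library allows up to 3 counts. Magef1, annotated as a transcribed processed pseudogene on chromosome 16, was the only other family gene that passed 10 counts, with 68, 68, 83 and 88 counts in WT cells (normoxia before hypoxia) and 91, 94, 108 and 88 in FIH-KO cells. In CPM it was at 4.37 and 4.02 in WT normoxia, 4.65 and 6.0 in WT hypoxia, 5.41 and 5.26 in FIH-KO normoxia and 6.74 and 5.72 in FIH-KO hypoxia. Over its 484 annotated exon bases, its mean was 8.67 RPKM in WT normoxia and 11.0 RPKM in WT hypoxia. In FIH-KO normoxia and hypoxia it was 11.0 and 12.9 RPKM. These levels were above those of Nsmce3 in every group. It did not pass the test between the genotypes (log2 fold changes 0.35 ± 0.24 and 0.23 ± 0.24, edgeR adjusted p = 0.32 and 0.51).

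The effect of hypoxia was not used to choose the members and was tested. Mageh1 in WT cells and Ndn in FIH-KO cells did not exceed 3 counts in any library, so their changes with oxygen there were not detectable and they were set aside from the counts that rest on those libraries. In WT cells, 0 of the other 5 members passed an adjusted p of 0.05 by edgeR, where 32.4% of all tested genes did, 1 had an unadjusted p under 0.05 (42.8% of all tested genes), and DESeq2 called 1 (Magee1 in both cases). In FIH-KO cells, 0 of 5 passed, where 16.8% of all tested genes did, 1 had an unadjusted p under 0.05 (31.0% of all tested genes), and DESeq2 called 0. The hypoxia and normoxia libraries did not overlap for 1 of the 5 members in WT cells, where 70.9% of all tested genes did not, and for 4 of the 5 in FIH-KO cells, where 55.2% did not. Magee1 was lower in both hypoxia libraries than in both normoxia libraries in each genotype, and 44.5% of all tested genes had libraries that overlapped in neither genotype. Its log2 fold change was -1.22 ± 0.45 (SE, edgeR adjusted p = 0.054) in WT cells and -0.66 ± 0.24 (adjusted p = 0.086) in FIH-KO cells. The FIH-KO value depended on single libraries: it was -0.29 (adjusted p = 0.45) without FIH-KO hypoxia replicate 1 and -1.10 (adjusted p = 0.0074) without FIH-KO hypoxia replicate 2. The WT value stayed between -1.28 and -1.20, with adjusted p from 0.015 to 0.18 over the alternatives, and passed without either FIH-KO hypoxia library (0.015 and 0.019), with DESeq2 (0.047), with no filter (0.023) and with only the 4 WT libraries (0.039). With no filter the FIH-KO value passed too (0.039).

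Averaged over both genotypes, a contrast added after the data had been seen, Magee1 fell by 0.94 ± 0.25 on the log2 scale (SE, adjusted p = 0.011, edgeR), lower in all 4 hypoxia libraries than in the normoxia libraries of the same genotype. Over the alternatives its adjusted p ran from 0.00067 to 0.048 and its value from -1.17 to -0.78. In this contrast Magee1 was the 1 of the 4 members above 3 counts in both genotypes that passed, beside 41.0% of all tested genes (20.3% higher and 20.6% lower), and DESeq2 also called 1. In FIH-KO cells, where Mageh1 was well above 0, its log2 fold change in hypoxia was -0.68 ± 0.32 (adjusted p = 0.17).

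For the other members, hypoxia gave small or uncertain differences. Maged1 had log2 fold changes of -0.10 ± 0.11 in WT (adjusted p = 0.54) and 0.08 ± 0.11 in FIH-KO cells (adjusted p = 0.66), and Nsmce3 had 0.09 ± 0.15 (adjusted p = 0.69) and -0.18 ± 0.15 (adjusted p = 0.45). The WT value of Nsmce3 was -0.04 without WT hypoxia replicate 1 and 0.18 without WT hypoxia replicate 2, and that of Maged1 ran from -0.23 without WT normoxia replicate 1 to -0.04 without WT normoxia replicate 2. Maged2 was at -0.43 ± 0.23 in FIH-KO cells (adjusted p = 0.24), where both hypoxia libraries were below both normoxia libraries, and at 0.06 ± 0.46 in WT cells (adjusted p = 0.93), a value that ran from -0.64 without WT normoxia replicate 2 to 1.16 without WT normoxia replicate 1. Ndn in WT cells was at -0.39 ± 0.41 (adjusted p = 0.49), a value that ran from -0.91 without WT hypoxia replicate 1 to -0.06 without WT hypoxia replicate 2. The test of whether the effect of hypoxia differed between the genotypes called 0 of the 4 members above 3 counts in both genotypes by edgeR and 0 by DESeq2, with 0 at an unadjusted p under 0.05, beside 0% of all tested genes by edgeR and 6.64% at an unadjusted p under 0.05. The difference in effect, FIH-KO minus WT, was 0.57 ± 0.51 for Magee1 (adjusted p = 0.86), -0.49 ± 0.52 for Maged2 (adjusted p = 0.89), 0.18 ± 0.16 for Maged1 (adjusted p = 0.86) and -0.28 ± 0.21 for Nsmce3 (adjusted p = 0.83). Single libraries moved these values: that of Maged2 ran from -1.57 without WT normoxia replicate 1 to 0.23 without WT normoxia replicate 2, and that of Magee1 from 0.13 without FIH-KO hypoxia replicate 2 to 0.97 without FIH-KO hypoxia replicate 1.

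**Figure D2:**
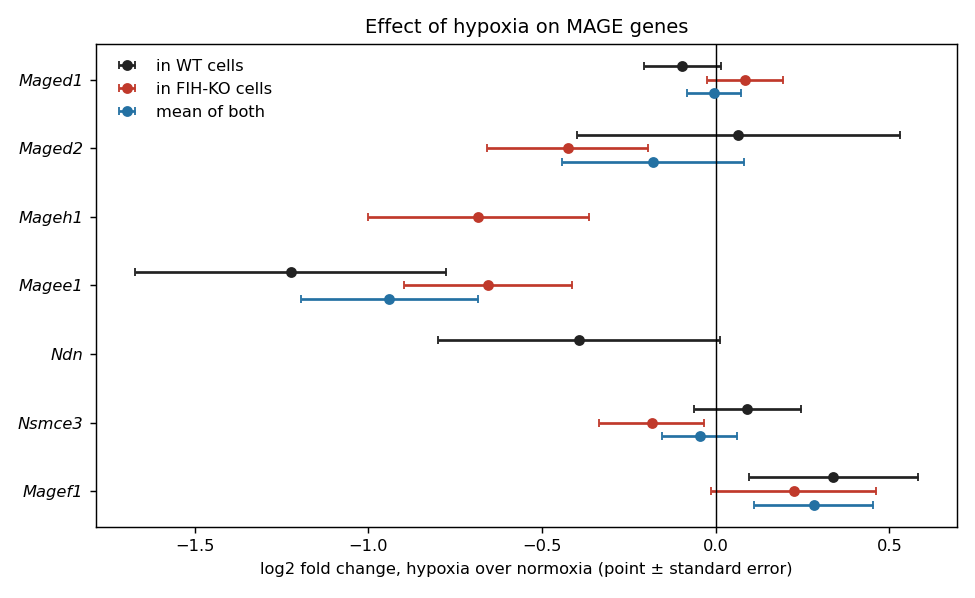
Log2 fold change of hypoxia over normoxia for the members and Magef1, with standard errors, in WT cells, in FIH-KO cells and as the mean of both; values are left out where a group was at 3 counts or fewer in both libraries. Magee1 is left of 0 in all 3 estimates, whereas Maged1 and Nsmce3 lie within 0.2 of 0.

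The chromosomal surroundings of the members were then described. On the X chromosome, 471 genes were tested, of which FIH-KO cells had 20.6% higher and 8.28% lower in normoxia, and 24.4% and 6.37% in hypoxia. Over all tested genes these shares were 15.2% and 13.0% in normoxia and 14.1% and 13.9% in hypoxia. The median log2 fold change of X-linked genes was 0.08 in normoxia and 0.14 in hypoxia. Genes below 2 CPM in all 4 WT libraries and above 2 CPM in all 4 FIH-KO libraries, a limit set after the data had been seen, numbered 25 of 471 on the X chromosome (5.31%) and 106 of 13933 in all (0.761%), and Maged2, Mageh1 and Magee1 were among them.

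The tested genes next to Maged2 and Magee1 did not move with them. Of the 10 nearest tested genes, 5 on each side, those of Maged2 had 0 higher and 1 lower (Fam120c) in both conditions, and those of Magee1 had 0 called in normoxia and 1 higher (5530601H04Rik, the overlapping antisense transcript) in hypoxia. Pfkfb1 and Gnl3l, directly beside Maged2, were at log2 fold changes of -0.30 ± 0.28 and 0.03 ± 0.11 in normoxia (adjusted p = 0.46 and 0.86). Pbdc1 and the pseudogene Rpl30-ps9, beside Magee1, were at -0.13 ± 0.12 and -0.54 ± 0.40 (adjusted p = 0.47 and 0.35). Beside Maged1, the low-count genes Gm14827 and Gm9009 did not pass either (adjusted p = 0.62 and 0.90), and of its 10 neighbors 1 was higher (Gspt2) and 1 lower (Eif2s3x) in both conditions.

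Around Mageh1, 7 of its 10 neighbors were called higher in normoxia and 5 in hypoxia, with 0 lower. Rragb, the nearest tested gene on one side, which encodes a Rag GTPase of the amino acid sensing pathway to mTORC1, had 10, 3, 3 and 2 counts in WT cells, 92 and 79 in FIH-KO normoxia and 20 and 40 in FIH-KO hypoxia. Its log2 fold change in normoxia was 3.59 ± 0.51 (adjusted p = 0.00039). Klf8, a Krüppel-like transcription factor beyond it, had 6 counts in every WT library and 85 to 107 in the FIH-KO libraries, with log2 fold changes of 3.78 ± 0.36 and 4.02 ± 0.35 (adjusted p = 2.6e-05 and 1.8e-05). Spin2c, the fifth gene on that side, was at 0 in all WT libraries and had 24 and 35 counts in FIH-KO normoxia and 8 and 6 in FIH-KO hypoxia. With a floor of 3 counts over the WT group, Spin2c was at least 18.4-fold higher in normoxia, and its bound in hypoxia was at least 4.83-fold higher. Rps7-ps3, a pseudogene directly on the other side, did not pass (0.26 ± 0.20, adjusted p = 0.38, in normoxia). Klf8 and Spin2c were named after their values had been seen. Rragb, Klf8 and Spin2c passed the low-count filter only through FIH-KO libraries, so they could be called only as higher. Nothing is read from their part in the counts of neighbors above, and their adjusted p-values are a description. Neighbors are not independent of each other, and the share of X-linked genes called is given above.

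**Figure D3:**
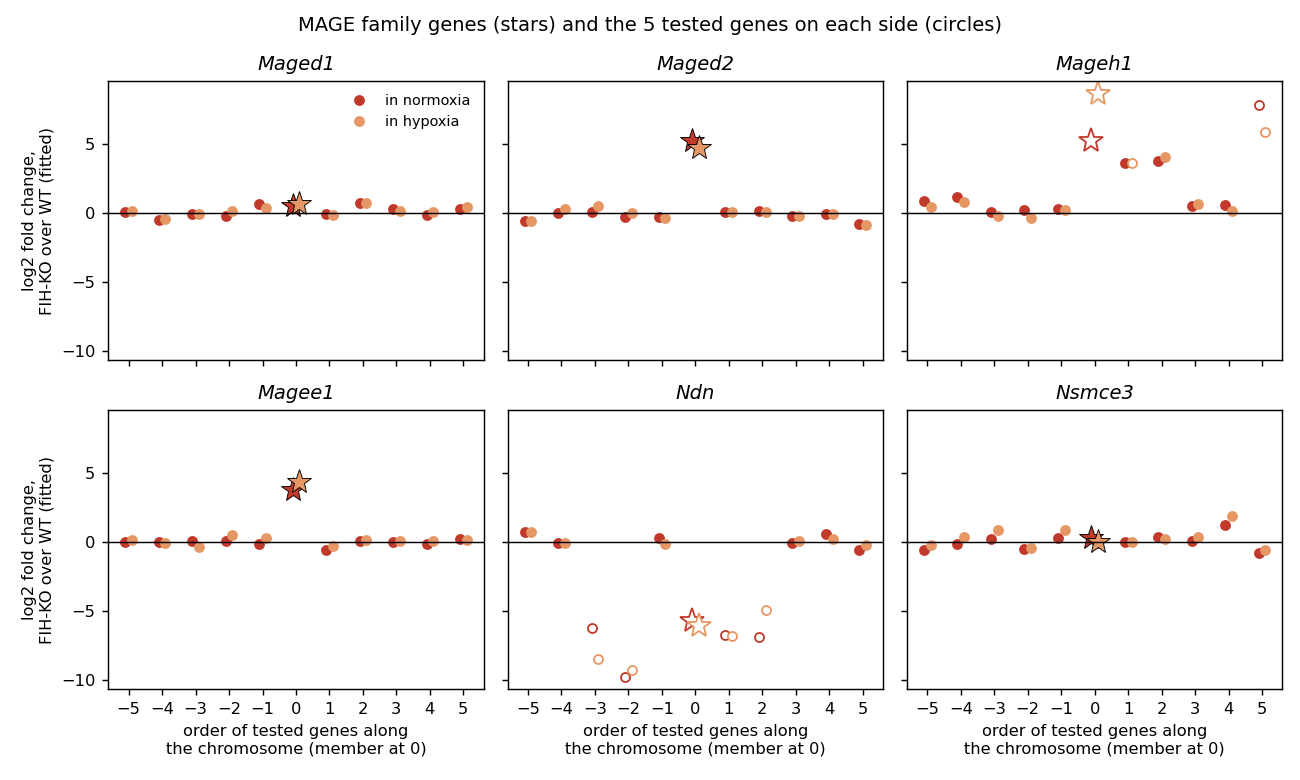
Fitted log2 fold change of FIH-KO over WT for each member (stars) and for the 5 tested genes on each side in chromosomal order (circles), in normoxia and hypoxia; open symbols have a group at 3 counts or fewer in both libraries, and their height is not a measured fold. The circles stay near 0 beside Maged2 and Magee1, several lie high beside Mageh1, and 4 neighbors of Ndn lie far below 0.

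Ndn lies in the imprinted Prader-Willi region of chromosome 7, whose Ndn, Magel2, Mkrn3, Peg12, Snrpn and Snhg14 genes are expressed from the paternal copy, whereas Ube3a is biallelic outside neurons. Of the 6 other genes listed for the region, 4 were tested and 3 were lower in FIH-KO cells in both conditions, where 13.0% and 13.9% of all tested genes were lower. These 3, Snrpn, Peg12 and Mkrn3, passed the low-count filter only through WT libraries, so they could be called only as lower. The list was also chosen with earlier results known. Nothing is read from that count, and the adjusted p-values of the 3 genes are a description. Snrpn encodes a small nuclear ribonucleoprotein. It had 101 and 113 counts in WT normoxia, 74 and 78 in WT hypoxia and 0 in all 4 FIH-KO libraries. By the exact 95% counting interval, the WT level was at least 61.4-fold higher in normoxia and 39.3-fold in hypoxia (edgeR adjusted p = 1.6e-05 and 3.2e-05). Peg12, a homolog of Frat proteins of Wnt signaling, had 72, 69, 62 and 42 counts in WT and 1, 0, 3 and 0 in FIH-KO cells (adjusted p = 5.2e-05 and 0.00023). Mkrn3, which encodes a makorin RING finger protein, had 10, 16, 12 and 15 counts in WT and 0 in all FIH-KO libraries (adjusted p = 0.0027 and 0.0028).

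Ube3a, the ubiquitin ligase gene of Angelman syndrome, had 2238 to 2922 counts and did not pass (log2 fold changes -0.06 ± 0.11 and -0.04 ± 0.11, adjusted p = 0.74 and 0.81). Snhg14, the long host transcript between Ube3a and Snrpn, had 47, 40, 33 and 52 counts in WT and 1, 0, 0 and 0 in FIH-KO cells (adjusted p = 0.00029 and 0.00027). Snhg14 was not on the list and, like Atp10a below, was named after its values had been seen. Snhg14 too passed the low-count filter only through WT libraries and could be called only as lower. Magel2 did not exceed 1 count and Snurf was at 0 counts, so neither could be tested. Gm10297, between Snrpn and Ndn, did not pass (adjusted p = 0.75 in normoxia), and Atp10a, beyond Ube3a, was higher in FIH-KO cells (0.77 ± 0.17, adjusted p = 0.0061, in normoxia). The low transcripts thus ran from Snhg14 to Peg12, with Gm10297 between them. Nsmce3, on the same chromosome, lies outside that stretch. Its nearest tested neighbors, Mcee and Tjp1, were at log2 fold changes of 0.27 ± 0.25 and 0.01 ± 0.13 in normoxia (edgeR adjusted p = 0.47 and 0.95). In hypoxia they were at 0.86 ± 0.28 and 0.03 ± 0.13 (edgeR adjusted p = 0.039 and 0.87). The Mcee call was lost with only the 4 libraries of the comparison (0.092). Of the 10 nearest tested genes of Nsmce3, 1 was higher and 3 lower in normoxia, and 3 higher and 2 lower in hypoxia.

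**Figure D4:**
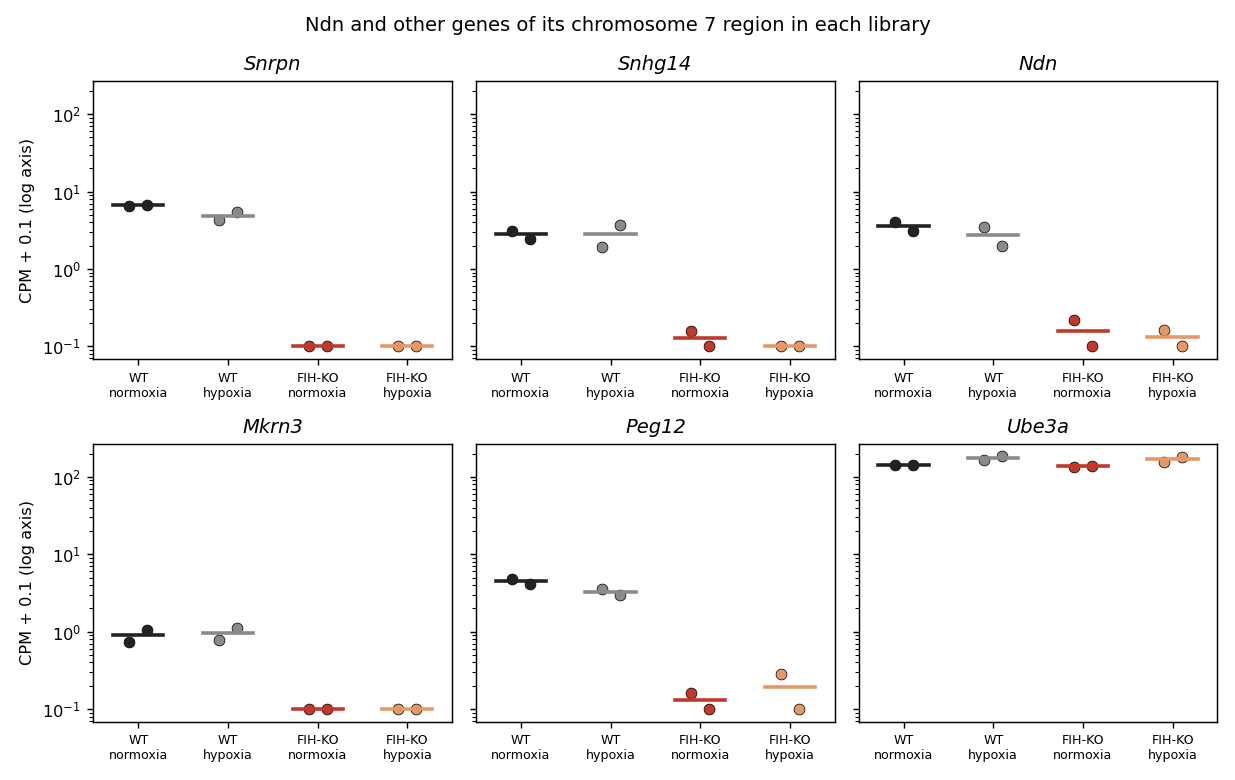
Levels of Ndn and of other genes of its chromosome 7 region in the 8 libraries, in CPM with 0.1 added on a log axis; points are libraries and lines group means (n = 2). Snrpn, Snhg14, Ndn, Mkrn3 and Peg12 are at or near 0 in all 4 FIH-KO libraries, whereas Ube3a is at a like level in both genotypes.

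Nsmce3 forms a subcomplex of SMC5/6 with the RING ligase Nsmce1 and the kleisin Nsmce4a. Of the 8 other genes listed for the complex and its loading factors, all were tested. FIH-KO cells had 1 higher (15.2% of all tested genes) and 2 lower (13.0%) in normoxia, and 1 higher (14.1%) and 2 lower (13.9%) in hypoxia. The list medians were -0.08 and -0.27, beside -0.003 and -0.03 over all genes. The lower genes were the same in both conditions. Smc5, an ATPase of the ring, was at 117 and 111 CPM in WT normoxia and 74.1 and 80.1 CPM in FIH-KO normoxia, with log2 fold changes of -0.57 ± 0.13 in normoxia and -0.75 ± 0.14 in hypoxia (adjusted p = 0.0081 and 0.0018). The normoxia call was lost without WT normoxia replicate 1 (adjusted p = 0.065) or FIH-KO normoxia replicate 1 (0.064). Slf1, which helps bring the complex to damaged DNA, was at -0.69 ± 0.14 (adjusted p = 0.0039) and -0.80 ± 0.14 (adjusted p = 0.0018).

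The RING and SUMO ligase subunits were lower in hypoxia. In WT cells 3 of the 8 genes were lower in hypoxia, where 15.5% of all tested genes were, and in FIH-KO cells 2 were, where 8.0% of genes were. Nsmce1 fell from 45.0 and 48.4 CPM in WT normoxia to 21.4 and 23.3 CPM in WT hypoxia (log2 fold change -1.06 ± 0.13, adjusted p = 0.00014) and from 52.5 and 48.1 CPM to 32.0 and 35.5 CPM in FIH-KO cells (-0.58 ± 0.13, adjusted p = 0.010). The latter call was lost without FIH-KO normoxia replicate 1 (adjusted p = 0.083) or FIH-KO hypoxia replicate 1 (0.064). Within hypoxia, Nsmce1 was the gene that was higher in FIH-KO than in WT cells (0.59 ± 0.13, adjusted p = 0.0058), but the difference between its hypoxia effects did not pass (0.49 ± 0.18, adjusted p = 0.64). Nsmce2, a SUMO ligase, was at -0.41 ± 0.13 in WT (adjusted p = 0.029) and -0.49 ± 0.13 in FIH-KO cells (adjusted p = 0.021), and at 0.40 ± 0.13 between the genotypes in normoxia (adjusted p = 0.034). The WT call of Nsmce2 was lost without any 1 of the 4 WT libraries (adjusted p from 0.084 to 0.12). Its FIH-KO call was lost without either WT normoxia library, FIH-KO normoxia replicate 1 or FIH-KO hypoxia replicate 1 (0.055 to 0.18), and its genotype call without any WT library or FIH-KO normoxia replicate 1 (0.051 to 0.28). Nsmce4a was at -0.53 ± 0.13 in WT cells (adjusted p = 0.010), a call lost without WT normoxia replicate 2 (0.060) or WT hypoxia replicate 1 (0.057).

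Among the ubiquitin ligases and the deubiquitinase known to bind MAGE proteins, 6 of 7 were tested and Lnx1 did not exceed 4 counts. FIH-KO cells had 1 higher and 1 lower in normoxia (15.2% and 13.0% of all tested genes) and, counting Nsmce1, 2 higher and 1 lower in hypoxia (14.1% and 13.9%). Pja2 (Praja2), a RING ligase that binds Maged1, was at 135 and 140 CPM in WT normoxia and 227 and 208 CPM in FIH-KO normoxia (log2 fold change 0.66 ± 0.11, adjusted p = 0.0013), and at 0.63 ± 0.11 in hypoxia (adjusted p = 0.0017). Trim27, a ligase that works with Magel2 on endosomes, was lower at -0.54 ± 0.13 (adjusted p = 0.0069) and -0.70 ± 0.13 (adjusted p = 0.0017), the former call being lost without WT normoxia replicate 2 (0.057) or FIH-KO normoxia replicate 1 (0.066). Trim28, Usp7 and Pja1 did not pass, with log2 fold changes between -0.10 and 0.15 in the 2 conditions.

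Of 17 genes listed as binding partners of Maged1, Ndn or Magee1, 13 were tested. The neurotrophin receptor gene Ngfr, with at most 8 counts, and the homeobox genes Dlx5 and Msx2, with at most 0 and 8 counts, were among those too low to test. FIH-KO cells had 3 higher and 1 lower in normoxia (15.2% and 13.0% of all tested genes), and 2 higher and 2 lower in hypoxia (14.1% and 13.9%). With hypoxia, WT cells had 4 higher (16.9% of all tested genes) and 1 lower (15.5%), whereas FIH-KO cells had 2 higher (8.84%) and 1 lower (8.0%). Rora, counted as higher in both genotypes, passed the low-count filter only through hypoxia libraries. It could be called only as higher there, and nothing is read from its part in these counts. Unc5a, a netrin receptor that binds Maged1, was at 24.7 and 33.4 CPM in WT normoxia and 61.7 and 55.9 CPM in FIH-KO normoxia (log2 fold change 1.02 ± 0.16, adjusted p = 0.00062), and at 0.96 ± 0.16 in hypoxia (adjusted p = 0.0012). It was also lower in hypoxia, with log2 fold changes of -0.76 ± 0.16 in WT (adjusted p = 0.0040, but 0.058 without WT normoxia replicate 2) and -0.82 ± 0.15 in FIH-KO cells (adjusted p = 0.0042). Eid1, an inhibitor of p300 that binds necdin and Maged1, was at 0.70 ± 0.12 and 0.71 ± 0.12 between the genotypes (adjusted p = 0.0015 and 0.0014).

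Dtna, which encodes α-dystrobrevin, a partner of Magee1, differed between the genotypes in the direction opposite to Magee1. It was at 11.4 and 12.3 CPM in WT normoxia and 25.0 and 25.6 CPM in WT hypoxia, against 1.55 and 0.951 CPM in FIH-KO normoxia and 2.62 and 1.50 CPM in FIH-KO hypoxia. FIH-KO over WT, the log2 fold change was -3.25 ± 0.29 under normoxia (adjusted p = 1.6e-05) and -3.61 ± 0.27 under hypoxia (adjusted p = 5e-06). Hypoxia raised it in WT cells by 1.09 ± 0.22 (adjusted p = 0.0032). In FIH-KO cells the mean of Dtna was 1.25 CPM in normoxia and 2.06 CPM in hypoxia, a change that did not pass. The difference between its hypoxia effects in the 2 genotypes did not pass either. Dtnb, which encodes the other dystrobrevin, did not pass between the genotypes (0.29 ± 0.15, adjusted p = 0.19, in normoxia).

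The circadian genes Rora and Arntl (Bmal1), both on the list of binding partners, were higher in hypoxia. Rora had 0 counts in WT normoxia and 117 and 77 in WT hypoxia. The latter was at least 52.0-fold higher by the exact 95% counting interval (edgeR adjusted p = 3.3e-05). In FIH-KO cells Rora had 0 and 2 counts in normoxia against 47 and 29 in hypoxia (edgeR adjusted p = 0.00067). It passed the low-count filter only through hypoxia libraries, so with hypoxia it could be called only as higher. Its adjusted p-values with hypoxia are a description. Within hypoxia it was lower in FIH-KO cells (-1.29 ± 0.37, adjusted p = 0.023), but this call was lost without WT hypoxia replicate 1 (0.16), WT hypoxia replicate 2 (0.059) or FIH-KO hypoxia replicate 2 (0.10). Arntl was at 0.59 ± 0.15 in WT (adjusted p = 0.0097, but 0.17 without WT normoxia replicate 2 and 0.094 without WT hypoxia replicate 1) and 0.75 ± 0.15 in FIH-KO cells (adjusted p = 0.0052). Dlx2, a homeobox factor that binds Maged1, was at 0.59 ± 0.15 in WT cells (adjusted p = 0.012), a call lost without either WT normoxia replicate (0.092 and 0.098) or WT hypoxia replicate 1 (0.098).

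**Figure D5:**
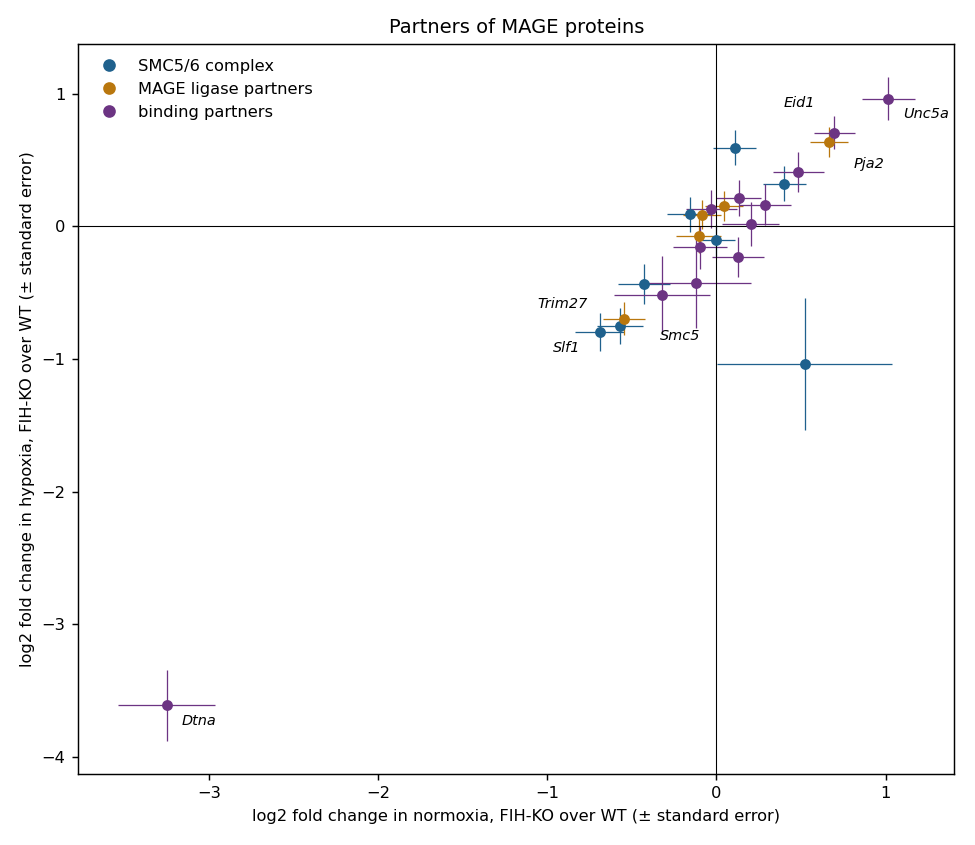
Log2 fold change of FIH-KO over WT in normoxia and in hypoxia, with standard errors, for the tested partners of MAGE proteins, Rora left out because it was at 0 to 2 counts in normoxia. Genes called in both conditions are named: Unc5a, Eid1 and Pja2 are higher, Smc5, Slf1 and Trim27 are lower, and Dtna lies far from the rest.

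The genes whose log2 CPM followed each member most closely over the 8 libraries were listed among tested genes averaging 50 counts or more. These correlations describe 8 libraries that share genotype and oxygen, and carry no test. Maged2 was closest to Armcx2 (r = 0.995), Tspan6 (0.994) and Ccdc9b (0.992), of which Armcx2 and Tspan6 are X-linked. Magee1 was closest to Amot (0.999), C1s1 (0.996) and Sdf4 (0.994), and Mageh1 to Amot (0.994), Stom (0.994) and Car5b (0.993). Amot, the X-linked gene for angiomotin, was at 10.7 and 10.6 CPM in WT normoxia, 5.09 and 3.95 in WT hypoxia, 270.1 and 238 in FIH-KO normoxia and 109 and 196 in FIH-KO hypoxia, the same order of groups as Magee1. Ndn was closest to As3mt, Dnmbp and Tmem132a, all on chromosome 19 and all at r = 0.995, Maged1 to Txlnb (0.991), Tbc1d17 (0.989) and AI467606 (0.986), and Nsmce3 to Rpp21 (0.958), Deaf1 (0.952) and Ccdc97 (0.929). Among the members, the closest pair was Mageh1 and Magee1 (r = 0.993), and Ndn ran opposite to Maged1, Maged2, Mageh1 and Magee1 (r from -0.951 to -0.932).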

How the data were processed

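Polyadenylated RNA of LLC cells was sequenced in 8 stranded paired-end libraries. The authors aligned reads with STAR to GRCm39 and deposited whole-number HTSeq counts per gene; the submitters' processing notes also name DESeq2 and GRCm38. The annotation release, strand setting and handling of multi-mapped reads are not given in the sources used here. Counts were analyzed with edgeR 4.0.16 in R 4.3.3 (filterByExpr, TMM factors from 0.983 to 1.02, quasi-likelihood test, a mean per group over all 8 libraries, common biological coefficient of variation 11.7%), with Benjamini-Hochberg adjustment over 13933 genes and a threshold of 0.05; DESeq2 1.42.0 was an alternative. The procedure was tested on simulated data. Positions and exon lengths are from GENCODE mouse release 39, which held 97.97% of the IDs.

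The members and gene lists were chosen with earlier results of these data known, and p-values are not adjusted over the lists alone. Named were the members, other MAGE genes with at least 10 counts, listed genes called in both genotype contrasts or in any hypoxia contrast, the 3 tested genes most correlated with each member (log2 CPM, prior count 2), and the nearest tested neighbor on each side; other named genes were picked by value. Protein sequences were not used here. Alternatives were other scalings, no filter, DESeq2, a replicate block, the libraries of a comparison alone, and leaving out each library. A filter of at least 10 counts in every library was also run. Maged2, Mageh1, Magee1 and Ndn did not pass it and could not be fitted there.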

Additional observations from a re-analysis of the deposited data

How the results depend on the processing

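The levels of the members and the direction of their genotype differences were recomputed under each alternative, and the direction held for Maged1, Maged2 and Magee1 under all that could be fitted, with log2 fold changes of 0.36 to 0.55, 4.51 to 6.31 and 3.72 to 3.80 in normoxia and 0.63 to 0.72, 4.42 to 5.16 and 3.92 to 4.73 in hypoxia. Signs of genotype differences turned for Nsmce3 in hypoxia (-0.0623 without WT hypoxia replicate 2 and -0.002 without FIH-KO hypoxia replicate 2, in a range up to 0.1515) and, with 5 rather than 3 neighbors per side, for the median of the neighbors of Maged1 in normoxia (-0.0147) and of Maged2 in hypoxia (-0.0632). Among the hypoxia effects of members that passed no test, signs turned without single libraries for Maged2 in WT (-0.6361 to 1.1607), in the mean of both genotypes (-0.5211 to 0.3777) and in the difference between the genotypes (-1.566 to 0.2301), for Nsmce3 in WT (-0.0417 to 0.1751) and for the mean of Maged1 (-0.0619 to 0.0326). Leaving out each library in turn, where the lone library of a group was assumed to vary like the other groups, gave 1735 to 4672 called genes between the genotypes in normoxia (3933 with all), 2170 to 3887 in hypoxia (3896), 2124 to 5270 for hypoxia in WT (4509), 1097 to 2604 for hypoxia in FIH-KO cells (2345), 4195 to 5906 for the mean effect of hypoxia (5708) and 0 to 39 for the difference between the hypoxia effects (0). With only the 4 libraries of the comparison, 1289 genes were called for hypoxia in FIH-KO cells. For the difference between the hypoxia effects, 143 genes were called with no filter, 40 by DESeq2 and 5 with a replicate block; the cause was not tested. The labels of samples with the same replicate number share only that number. Correlations of their deviations ran from -0.010 to 0.193, and whether they shared a batch was not tested. The replicate block changed no call of a member. At these depths, levels of Mageh1 in WT and Ndn in FIH-KO cells were at the limit of detection, so changes with oxygen there were not detectable.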
